A study of Rattus norvegicus with 23 samples.

Results

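The genes described here encode the last part of the mitochondrial electron transport chain: complex III, cytochrome c, complex IV and ATP synthase. They were chosen by name, as every row whose symbol begins with Uqcr, with Cox and a digit, or with Atp5, plus Cyc1 and Cycs. This gave 47 of the 10723 genes measured per library, and the same 47 among the 11283 rows of each of the authors' deposited comparison tables. Of the 47, 9 belong to complex III, 1 is cytochrome c, 14 encode complex IV subunits, 7 encode complex IV assembly factors and 16 carry ATP synthase symbols. The samples were myocardium of Sprague-Dawley rats, as messenger RNA libraries. In the MI+TRD groups, myocardial infarction by ligation of the left coronary artery was followed by a second operation to implant a device. The labels call the device TRD and do not describe it further. In the MI groups, rats had the infarction alone, so every group carried an infarct. At 6 weeks there were 5 MI+TRD and 6 MI samples, and at 12 weeks 6 of each. The labels give neither the rats' age nor a sham group, nor do they say where in the heart the tissue was cut. Separate samples are named, without saying which rat each came from, so a p-value reflects only how these samples vary.

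Complex III, the cytochrome bc1 complex, takes electrons from ubiquinol and hands them to cytochrome c, a small soluble carrier. Complex IV, cytochrome c oxidase, passes them to oxygen. Both pump protons, and ATP synthase lets the protons flow back through its rotating c ring while its F1 head makes ATP. Cardiac muscle depends on this pathway for most of its ATP. The catalytic core subunits of complex IV, cytochrome b of complex III and a few ATP synthase subunits are encoded by mitochondrial DNA and are not among these genes.

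Values per library were available for the 12-week groups, with 7197118 to 10304156 reads recovered per library. Fold changes are MI+TRD minus MI on a log2(value + pseudocount) scale, tested with limma across 10655 genes; a relative fold change subtracts the median over all of these, which was -0.14. All 47 genes passed the filter on low values. MI+TRD replicates 1, 4 and 5 stood apart from the other libraries in earlier results of these data, so values are also given without them. They had 119, 114 and 178 genes at 0 reads, against 22, 46 and 13 in MI+TRD replicates 2, 3 and 6 and 28 to 75 in the MI libraries. Cardiomyocyte identity was clear in every library: 14 of 15 listed cardiomyocyte markers were measured and none was at 0.

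At 12 weeks most of the transcripts were lower with the device. Of the 47, 45 had a log2 fold change below 0, as did 7220 of the 10655 genes tested. The median of the 47 was -0.67, or -0.53 relative to all genes tested. At an unadjusted limma p below 0.05, 38 of 47 were lower, where 19.1% of all genes tested were, and 1 was higher, where 2.8% were. None passed after Benjamini-Hochberg adjustment, like all 10655 genes (lowest adjusted p of a member = 0.133); edgeR and DESeq2 on recovered reads also called 0 of the 47, and 0 and 21 of all genes. All 47 had overlapping groups, where 1.59% of all genes lay wholly below MI and 0.113% wholly above. In 24 of 47, all 6 MI+TRD libraries lay below the MI mean, as in 19.6% of all genes. The libraries of the MI+TRD group lay far apart for most of the genes.

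The scaling of the libraries moves these counts. With median ratio scaling 25 members were lower and 1 higher (8.24% of all genes lower), and with equal column totals 15 were lower and 1 higher (3.87% of all genes lower). Over all genes, 2033 were lower and 298 higher as deposited, 878 and 798 with median ratio scaling, and 412 and 1208 with equal column totals. The members' median relative log2 fold change was -0.52 under both alternatives, and -0.27 with library weights estimated by limma, where 19 members were lower against 13.7% of all genes.

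**Figure D1:**
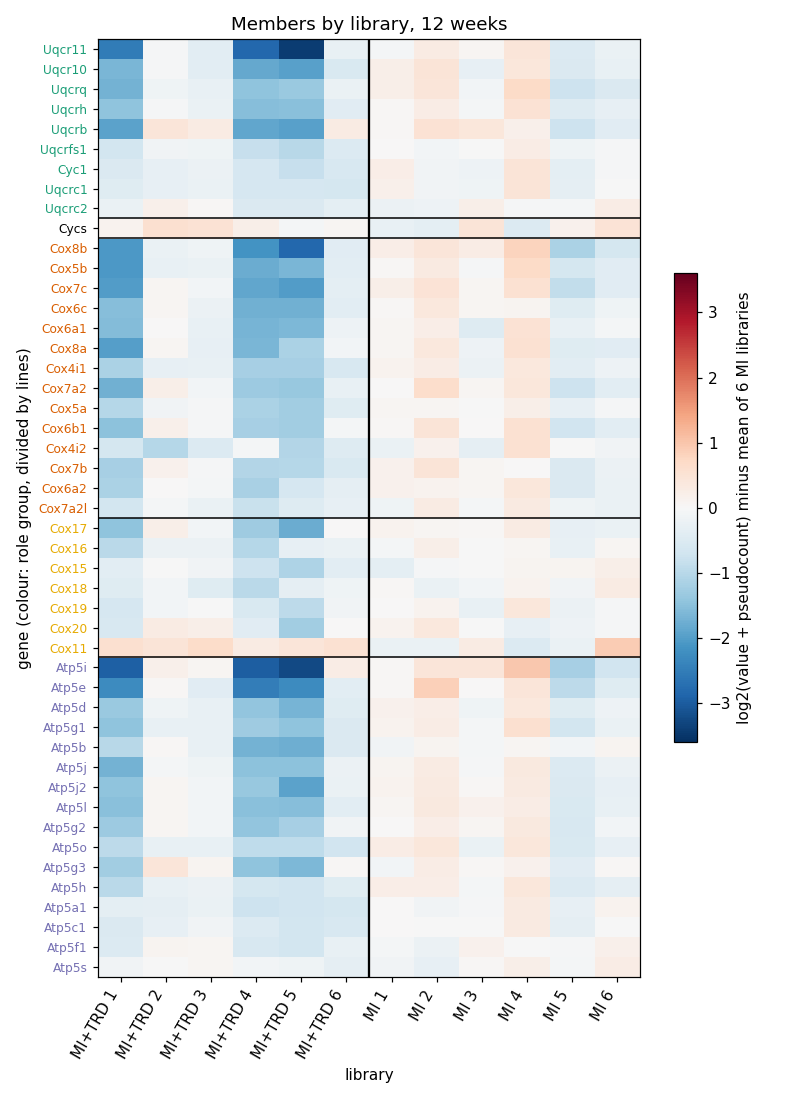
Level of each of the 47 genes in each of the 12 libraries at 12 weeks, as log2(value + pseudocount) minus the mean of the 6 MI libraries, with MI+TRD libraries at left, genes in rows coloured by role group. MI+TRD replicates 1, 4 and 5 are blue (low) across most rows, with Cycs, Cox11 and Atp5s among the exceptions. MI+TRD replicates 2 and 3 are close to the MI libraries. Replicate 6 is somewhat lower, with 17 of the 47 genes below the lowest MI library.

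The low values were mostly those of 3 libraries. As the median over the 47 genes, levels were 44.0%, 98.4%, 90.5%, 43.7%, 42.3% and 78.8% of the MI mean in MI+TRD replicates 1 to 6, against 103%, 120%, 99.4%, 127%, 74.1% and 88.3% in MI replicates 1 to 6. Below the lowest MI library lay 44, 2, 5, 43, 44 and 17 of the 47 genes in MI+TRD replicates 1 to 6. In 37 of 47 genes, replicates 1, 4 and 5 were the 3 lowest of their group, as in 19.3% of all genes. In 43 of 47, these 3 libraries all lay below the lowest MI library, as in 17.8% of all genes. MI+TRD replicates 2, 3 and 6 all reached the range of MI or lay above it for 29 of 47, as for 50% of all genes. Without replicates 1, 4 and 5, 1 of 47 was lower at an unadjusted limma p below 0.05, where 9.69% of all genes were, and the median relative log2 fold change of the 47 was -0.03. That 1 gene was Cox4i2, described below with the other isoforms. In bulk tissue, fewer cells of a type and less RNA per cell cannot be told apart.

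Other measures also differed between the libraries, though not all of them along with MI+TRD replicates 1, 4 and 5. The summed level of the 14 cardiomyocyte markers was 61243, 58847 and 64758 in MI+TRD replicates 1, 4 and 5 and 43720 to 55596 in MI+TRD replicates 2, 3 and 6, against 52875 to 83923 in MI, so by this sum replicates 1, 4 and 5 lay within the MI range. The sum mainly reflects a few abundant transcripts. Myh6 and Myh7, chosen after their values were seen, had the highest means of the list, at 14057 and 12420 in MI+TRD. Their log2 fold changes were -0.08 and 0.00. Of the 14, 7 were lower at an unadjusted limma p below 0.05 and 0 higher, where 19.1% and 2.8% of all genes tested were. Tnnc1, the calcium-binding troponin, had a log2 fold change of -0.61 (SE 0.17). Short genes of other functions were low in the same 3 libraries: 20 of 23 listed genes for subunits of import, splicing, transcription and proteasome machinery were measured. Their summed level was 262, 287 and 328 in MI+TRD replicates 1, 4 and 5 and 598 to 714 in MI+TRD replicates 2, 3 and 6, against 506 to 949 in MI. Of the 20, 13 were lower and 0 higher, with a median relative log2 fold change of -0.55, none at 0 reads. The 10 fibroblast markers summed to 4911 in MI+TRD replicate 6 and to 1003 to 1899 in MI+TRD replicates 1 to 5, against 989.8 to 1416 in MI. The 10 macrophage markers summed to 35.7, 36.9 and 60.4 in MI+TRD replicates 1, 4 and 5. They summed to 159, 73.1 and 532 in MI+TRD replicates 2, 3 and 6, against 50.9 to 122 in MI. No marker of either list was at 0. The 9 smooth muscle and pericyte markers summed to 347, 473 and 1007 in MI+TRD replicates 1, 4 and 5. They summed to 231 to 292 in MI+TRD replicates 2, 3 and 6, against 286 to 413 in MI, with none at 0. The 10 endothelial markers summed to 804, 916 and 745 in MI+TRD replicates 1, 4 and 5. Their sum was 605 to 615 in MI+TRD replicates 2, 3 and 6, against 641 to 953 in MI, also with none at 0. Of 8 measured epicardial markers, 6 were higher at an unadjusted limma p below 0.05, where 2.8% of all genes tested were, and 0 lower. The median relative log2 fold change of these markers was 1.46. They summed to 32.3, 27.7 and 50.1 in MI+TRD replicates 1, 4 and 5 and to 42.5 to 110 in MI+TRD replicates 2, 3 and 6, against 22.1 to 37.3 in MI, and Msln, Upk1b and Krt19 were at 0 reads in some libraries. The part of these in the lower levels was not tested.

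The shorter genes among the 47 had the lower fold changes. Across the 47 genes, the relative log2 fold change and the log2 genomic span of the row correlated with a Pearson r of 0.55 and a Spearman rho of 0.58, as a description over genes that share their 12 libraries. Of the 47, 19 spanned up to 5 kb, or 40.4%, against 13.8% of all genes tested. Among rows of 2 to 5 kb, the median relative log2 fold change was -0.72 in 16 members and -0.21 in 1097 other genes. Among rows of 5 to 10 kb it was -0.59 in 15 members and -0.13 in 1484 other genes, and of 10 to 20 kb -0.33 in 9 members and -0.05 in 2134 others. The classes with fewest members gave -1.17 in 3 members against -0.29 in others up to 2 kb. At 20 to 50 kb they gave -0.20 in 2 members against 0.06. Over 50 kb the order turned, at 0.24 in 2 members against 0.15 in 2757 others. These 2 were Cox11 at 0.63 and Atp5f1, named after its value was seen, at -0.16. The Atp5f1 row spans 168259 bases and shares 156840 of them with the Wdr77 row, so its span class is uncertain. By class median, the members thus lay below other genes of like span except over 50 kb, without a test. Per library, the median log2 deviation from the MI mean was taken relative to the library's median gene. In other genes up to 2 kb it was -0.67, -0.51 and -0.54 in MI+TRD replicates 1, 4 and 5. It was -0.06 to 0.005 in MI+TRD replicates 2, 3 and 6 and -0.19 to 0.17 in MI. Over 50 kb it was 0.28, 0.28 and 0.30 in replicates 1, 4 and 5 and -0.02 to 0.06 in 2, 3 and 6, against -0.06 to 0.06 in MI. The part of span in the members' lower levels was not tested. With the trend over span removed within each library, 21 of 47 were lower, where 8.1% of all genes were, and the median relative log2 fold change was -0.42.

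**Figure D2:**
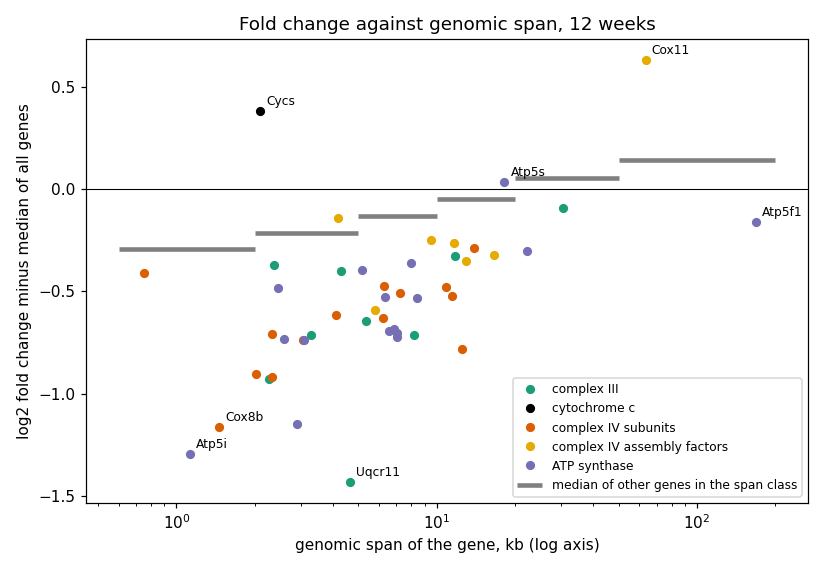
Relative log2 fold change at 12 weeks (vertical axis) of each of the 47 genes against the genomic span of its row in kb (horizontal log axis), with points coloured by role group; grey bars mark the median of other genes in each span class. Shorter members lie lower, most members lie below the grey bar of their class, and Cycs, Cox11 and Atp5s lie above 0.

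Of the 47 genes, 40 matched a RefSeq promoter of build GRCr8, taken as the 250 bases before the start and 50 after it; Atp5h, Cox4i2, Cox6a1, Cox6c, Cyc1, Uqcr11 and Uqcrb did not match. Motifs known from respiratory chain promoters were searched on both strands. The ETS (GABP) core CCGGAAG stood in 15 of 40, or 37.5%, against 9.22% of 27457 promoters. The NRF1 core GCATGCGC stood in 17.5% against 2.66%, and the longer NRF1 form (GCGCA, any base, GCGC), which can overlap it, in 20% against 4.71%. The YY1 core AAGATGGC stood in 15% against 3.44%, and the cyclic AMP response core ACGTCA in 17.5% against 8.22%. The ERR element TNAAGGTCA stood in 2.5% against 1.15%, and the MEF2 site (CTA, any 4 bases, TAG), known from muscle promoters, in 5% against 3.83%. The NRF1 core, the cyclic AMP response core and the MEF2 site were added after the promoters had been read. A match describes letters and is no evidence of binding. The 4 promoters below belong to a gene with one of the lowest levels in MI+TRD replicates 1, 4 and 5 (Atp5i), to the gene with the smallest p (Cox4i1), to a heart and muscle isoform (Cox6a2) and to cytochrome c (Cycs), 1 of the 2 genes with a log2 fold change above 0, Cox11 being the other. Capitals mark motif matches.
Atp5i (chr14:1464610-1464909, + strand): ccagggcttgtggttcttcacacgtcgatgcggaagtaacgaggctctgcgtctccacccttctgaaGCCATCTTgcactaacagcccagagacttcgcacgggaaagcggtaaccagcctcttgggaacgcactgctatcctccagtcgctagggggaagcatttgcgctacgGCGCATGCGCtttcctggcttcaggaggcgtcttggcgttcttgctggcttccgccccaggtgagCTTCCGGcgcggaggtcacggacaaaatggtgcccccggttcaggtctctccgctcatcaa
Cox4i1 (chr19:65630133-65630432, + strand): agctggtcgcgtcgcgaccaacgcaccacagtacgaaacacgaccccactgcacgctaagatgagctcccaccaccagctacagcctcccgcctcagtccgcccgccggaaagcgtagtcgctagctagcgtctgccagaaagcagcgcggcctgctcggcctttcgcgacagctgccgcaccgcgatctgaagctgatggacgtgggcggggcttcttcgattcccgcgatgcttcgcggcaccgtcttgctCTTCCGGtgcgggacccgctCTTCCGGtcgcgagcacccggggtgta
Cox6a2 (chr1:192219667-192219966, - strand): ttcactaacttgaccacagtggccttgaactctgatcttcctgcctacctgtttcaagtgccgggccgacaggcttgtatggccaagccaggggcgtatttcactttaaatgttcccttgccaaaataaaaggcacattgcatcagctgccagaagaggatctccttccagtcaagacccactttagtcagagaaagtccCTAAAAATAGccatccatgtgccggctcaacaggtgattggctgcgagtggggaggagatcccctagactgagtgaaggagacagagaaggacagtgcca
Cycs (chr4:80984718-80985017, - strand): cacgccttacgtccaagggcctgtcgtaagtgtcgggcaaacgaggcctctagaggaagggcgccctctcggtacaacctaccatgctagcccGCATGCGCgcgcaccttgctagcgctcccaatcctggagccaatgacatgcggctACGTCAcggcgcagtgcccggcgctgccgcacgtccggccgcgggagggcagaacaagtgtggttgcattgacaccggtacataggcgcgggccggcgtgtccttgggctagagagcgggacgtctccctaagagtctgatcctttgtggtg
The Atp5i promoter, named Atp5me in RefSeq, holds a YY1 core starting at base -183, NRF1 cores at -76 and -74, both inside a longer form at -76, and an ETS core at -11, counted from the gene start. Cox4i1 holds ETS cores at 4 and 24, Cox6a2 a MEF2 site at -50, and Cycs an NRF1 core at -157 with a cyclic AMP response core at -102. Median GC content was 57.3% in the 40 promoters against 52.3% in all.

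**Figure D3:**
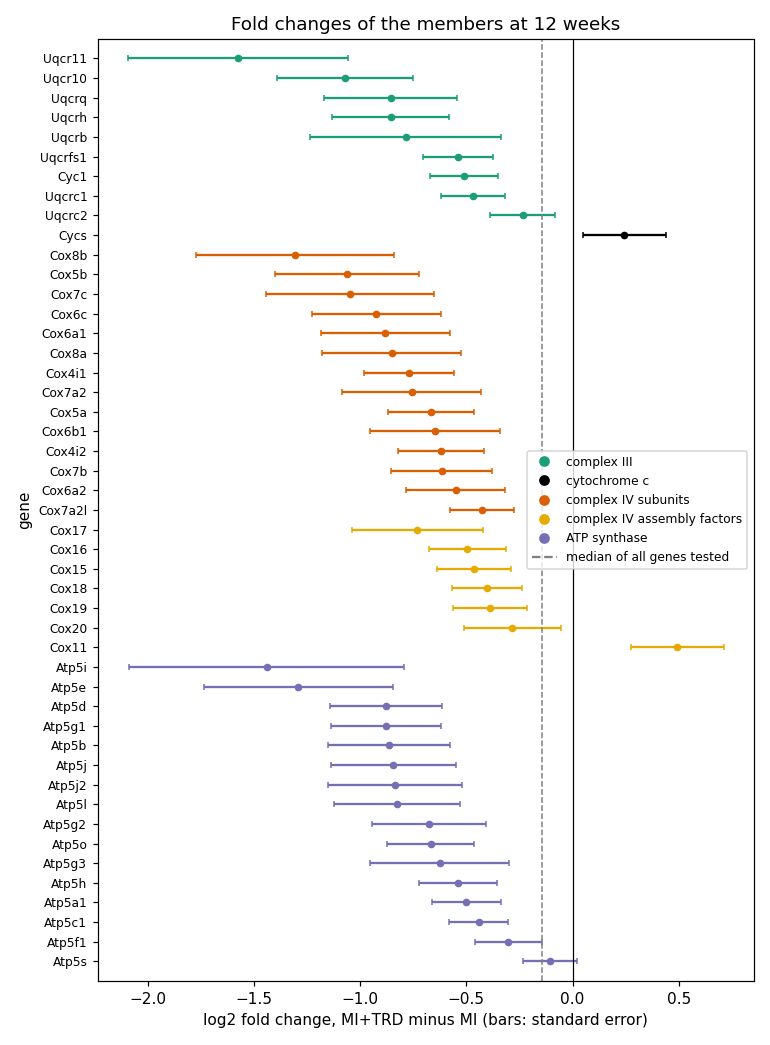
Log2 fold change of each of the 47 genes at 12 weeks (horizontal axis, MI+TRD minus MI; points, with bars for the standard error), in rows coloured by role group; the dashed line is the median of all genes tested. Uqcr11 lies lowest at -1.57, Cox11 highest at 0.49, and most other points lie left of the dashed line.

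The median relative log2 fold change of the complex III genes was -0.64. Of the 9, 7 were lower at an unadjusted limma p below 0.05, where 19.1% of all genes tested were. The 5 small accessory subunits, Uqcr10, Uqcr11, Uqcrb, Uqcrh and Uqcrq, had a median relative log2 fold change of -0.71, and 4 of 5 were lower. The 4 catalytic and core subunits, Cyc1, Uqcrfs1, Uqcrc1 and Uqcrc2, had a median of -0.35, and 3 of 4 were lower. This split was described after its values were seen. Uqcr10 (chromosome 14, 84935480 to 84937742, rn6) encodes a small subunit and had the smallest p of the complex. It measured 40.4, 79.8 and 153 normalized counts as the lowest, median and highest of the 6 MI+TRD libraries, against 111, 158 and 217 in MI. The groups overlapped, and 4 of 6 MI+TRD libraries lay below all MI libraries. The means were 86.3 ± 47.6 in MI+TRD and 164 ± 45.6 in MI (SD, n = 6 each), a log2 fold change of -1.07 (SE 0.32; limma adjusted p = 0.133).

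Uqcrfs1 encodes the Rieske iron-sulphur protein, the electron carrier that moves between the sites of the complex. It measured 288, 389 and 527 in MI+TRD against 524, 568.2 and 701 in MI (lowest, median and highest), so that only the highest MI+TRD library reached the MI range. Its log2 fold change was -0.54 (SE 0.17; limma adjusted p = 0.133). Cyc1 encodes cytochrome c1, which donates electrons to cytochrome c. It measured 275, 335 and 422 in MI+TRD against 388, 462 and 674 in MI, a log2 fold change of -0.51 (SE 0.16; limma adjusted p = 0.133). Uqcrc2, a core protein related to mitochondrial processing peptidases, was the complex III gene nearest to no difference. It measured 258, 304 and 419 in MI+TRD against 322, 361 and 447 in MI, a log2 fold change of -0.23 (SE 0.15; limma adjusted p = 0.399), which became 0.00 with equal column totals and with quantile normalization. The lowest of all was Uqcr11, chosen after its values were seen, at a log2 fold change of -1.57 (SE 0.52). It lay at 17.0%, 13.8% and 9.003% of the MI mean in MI+TRD replicates 1, 4 and 5 and at 75.0% to 95.4% in MI+TRD replicates 2, 3 and 6.

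Cycs, the soluble carrier between complexes III and IV, did not share this direction. It measured 360, 422 and 566 in MI+TRD against 267, 366 and 532 in MI (lowest, median and highest), and its means were 451 ± 82.9 in MI+TRD and 391 ± 117 in MI (SD, n = 6 each). The ranges lay over one another, and 5 of 6 MI+TRD libraries were above the MI mean. Its log2 fold change of 0.24 (SE 0.20) did not pass (limma adjusted p = 0.5004), and was 0.14 without MI replicate 4. In MI+TRD replicates 1, 4 and 5 it stood at 105%, 111% and 92.1% of the MI mean. Cycs spans 2102 bases, a short gene.

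**Figure D4:**
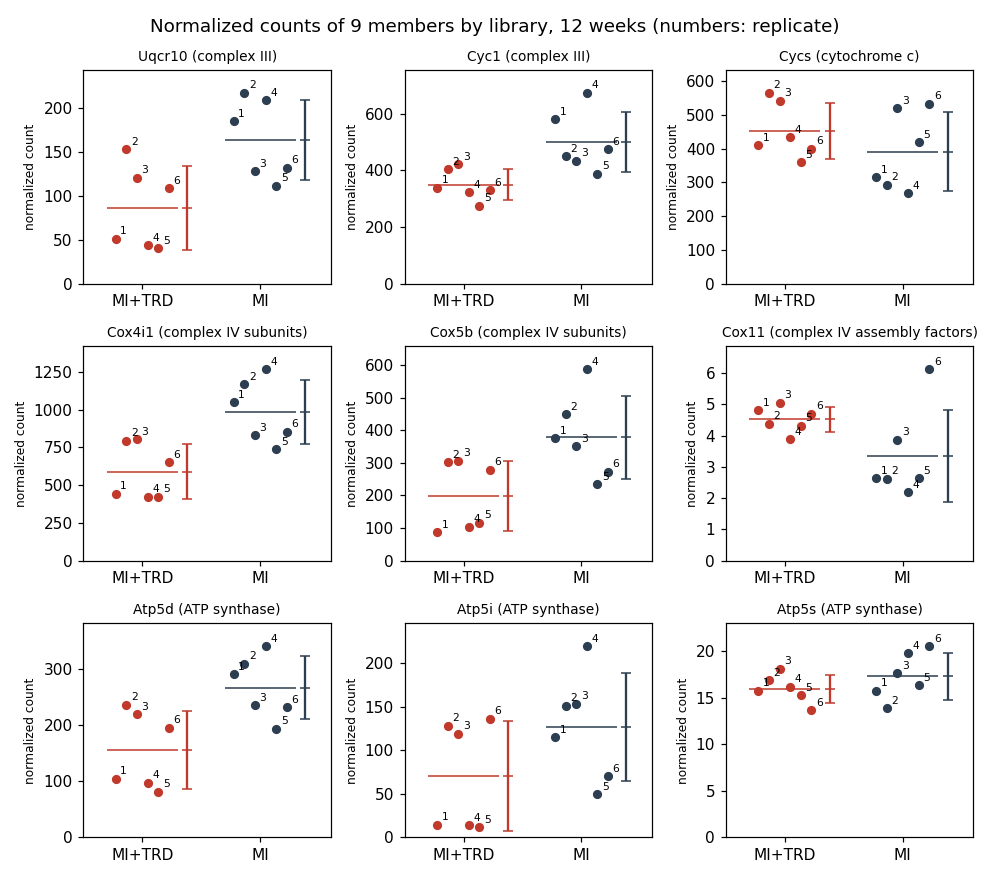
Normalized counts (vertical axes, starting at 0) of 9 of the genes in each library at 12 weeks, with MI+TRD at left and MI at right; lines are means, bars show 1 SD and numbers name replicates. In Uqcr10, Cox4i1, Cox5b, Atp5d and Atp5i, MI+TRD replicates 1, 4 and 5 lie low, while Cycs and Atp5s overlap widely between groups.

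The median relative log2 fold change of the complex IV subunit genes was -0.62. Of the 14, 13 were lower at an unadjusted limma p below 0.05, where 19.1% of all genes tested were. Cox6b1 was the other, at a log2 fold change of -0.65 (SE 0.31) and an unadjusted limma p of 0.0508 (named after its value was seen). Cox4i1 (chromosome 19, 54245958 to 54252199, rn6) encodes the largest nuclear subunit, which binds ATP as an allosteric regulator, and had the smallest p of the 47. It measured 422, 546 and 803 in MI+TRD against 738, 951 and 1267 in MI, with means of 590 ± 184 in MI+TRD and 984 ± 209 in MI (SD, n = 6 each). In 4 of 6 MI+TRD libraries it lay below the lowest MI library. Its log2 fold change was -0.77 (SE 0.21; limma adjusted p = 0.133).

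Cox5b (chromosome 9, 43259706 to 43262040, rn6) encodes a zinc-binding subunit on the matrix side. It measured 86.2, 197 and 306 in MI+TRD against 234, 363 and 587 in MI, a log2 fold change of -1.06 (SE 0.34; limma adjusted p = 0.133). Cox5a, the partner subunit on the matrix side, measured 62.7, 91.6 and 143 in MI+TRD against 121, 152 and 171 in MI, a log2 fold change of -0.67 (SE 0.20). The groups overlapped for both genes, with 3 and 4 of 6 MI+TRD libraries below all MI libraries. Cox7a2l encodes a factor that joins complexes III and IV into supercomplexes, and of the 14 it had the relative log2 fold change nearest to 0, at -0.28. It measured 42.8, 57.3 and 70.7 in MI+TRD against 63.2, 69.2 and 92.8 in MI, a log2 fold change of -0.43 (SE 0.15; limma adjusted p = 0.142).

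The assembly factors of complex IV, which insert copper and haem and place the first subunits, were lower by less and included an exception. Of 7, 5 were lower and 1 higher at an unadjusted limma p below 0.05, where 19.1% and 2.8% of all genes tested were. The median relative log2 fold change of the 7 was -0.26. Cox16, needed for the metallation of subunit 2, measured 3.90, 6.76 and 7.01 in MI+TRD against 6.69, 8.35 and 9.51 in MI, a log2 fold change of -0.49 (SE 0.18; limma adjusted p = 0.150). Cox15, which makes haem A, measured 20.8, 34.5 and 44.7 in MI+TRD against 35.3, 46.4 and 52.7 in MI, a log2 fold change of -0.46 (SE 0.18). Cox11 delivers copper to the active site of subunit 1. It measured 3.89, 4.54 and 5.05 in MI+TRD against 2.19, 2.64 and 6.12 in MI, and the 6 MI+TRD libraries all lay above the MI mean. Its log2 fold change was 0.49 (SE 0.22), with an unadjusted limma p of 0.0398 and an adjusted limma p of 0.209. Leaving out each of the 12 libraries in turn gave 0.40 to 0.68, and it was no longer past an unadjusted p of 0.05 without MI replicate 1, 2, 4 or 5 or without MI+TRD replicate 1, 2, 3 or 6. The highest library was MI replicate 6. On the genome its row shares 57561 bases with Stxbp4 on the other strand; whether counting used strand is not given in the sources used here, so reads of the 2 genes cannot be told apart there. Stxbp4 itself had a log2 fold change of 0.21.

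The median relative log2 fold change of the ATP synthase genes was -0.61. Of the 16, 13 were lower at an unadjusted limma p below 0.05, where 19.1% of all genes tested were. All 5 subunits of the F1 head were among them (Atp5a1, Atp5b, Atp5c1, Atp5d and Atp5e), as were all 3 small membrane subunits (Atp5i, Atp5j2 and Atp5l). Of the 3 genes for the c ring, which encode the same mature protein, 2 were lower, and of the 4 peripheral stalk genes 3 were, with Atp5g3 and Atp5f1 the others. This grouping was made after the values were seen. Atp5g1 measured 137, 210 and 314 in MI+TRD against 237, 387 and 567 in MI, a log2 fold change of -0.88 (SE 0.26; limma adjusted p = 0.133). Atp5d (chromosome 7, 12426811 to 12429898, rn6) encodes the delta subunit of the rotor stalk. It measured 81.4, 150 and 237 in MI+TRD against 193, 263 and 341 in MI, with means of 156 ± 69.0 in MI+TRD and 267 ± 55.7 in MI (SD, n = 6 each) and a log2 fold change of -0.88 (SE 0.26; limma adjusted p = 0.133). In 3 of 6 MI+TRD libraries it lay below the lowest MI library.

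Atp5o encodes the stalk subunit OSCP, which ties the F1 head to the stator. It measured 271, 301 and 435 in MI+TRD against 355, 537 and 700 in MI, a log2 fold change of -0.67 (SE 0.20; limma adjusted p = 0.133). Atp5c1, the gamma subunit that turns inside the head, measured 315, 349 and 453 in MI+TRD against 398, 492 and 619 in MI, a log2 fold change of -0.44 (SE 0.14; limma adjusted p = 0.133). Here the libraries were closer together, and MI+TRD replicates 1, 5 and 6 were the 3 lowest of their group. Atp5s, listed in RefSeq as Dmac2l, encodes a factor linked to coupling rather than a core subunit. It measured 13.6, 15.9 and 18.1 in MI+TRD against 13.8, 17.0 and 20.5 in MI, a log2 fold change of -0.11 (SE 0.13; limma adjusted p = 0.671), and under 7 alternatives its sign changed, to at most 0.13. Atp5i and Atp5e, chosen after their values were seen, had log2 fold changes of -1.44 (SE 0.65) and -1.29 (SE 0.44). Atp5i measured 14.5, 128, 119, 14.1, 11.6 and 136 in MI+TRD replicates 1 to 6, against 115, 151, 154, 219, 49.5 and 70.2 in MI replicates 1 to 6. The 3 low MI+TRD libraries lay below all of MI, and the other 3 MI+TRD libraries lay above MI replicates 1, 5 and 6.

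Several complex IV subunits have a heart and muscle form and a form found in most tissues. Of 5 listed pairs, 3 were measured in both members. In Cox6a2 (heart and muscle) the level was 425, 694 and 958 in MI+TRD against 665, 1017 and 1272 in MI, a log2 fold change of -0.55 (SE 0.23). Its partner Cox6a1 measured 36.5, 67.3 and 117 in MI+TRD against 84.0, 115 and 165 in MI, a log2 fold change of -0.88 (SE 0.30). The log2 ratio of Cox6a2 to Cox6a1 was 3.37 ± 0.41 in MI+TRD and 3.04 ± 0.28 in MI (SD, n = 6 each), a difference of 0.33 (two-sided exact permutation p = 0.136; adjusted over 3 pairs, 0.260). In 4 of 6 MI+TRD libraries the ratio exceeded its MI mean, and the difference did not pass the test. It was 0.20 without MI+TRD replicate 5 and 0.03 without MI+TRD replicates 1, 4 and 5.

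Cox8b (heart and muscle form in rodents) measured 37.9, 135 and 245 in MI+TRD against 123, 325 and 475 in MI, a log2 fold change of -1.31 (SE 0.47). Cox8a measured 19.8, 50.4 and 83.2 in MI+TRD against 59.0, 77.0 and 116 in MI, a log2 fold change of -0.85 (SE 0.33). The log2 ratio of Cox8b to Cox8a was 1.31 ± 0.64 in MI+TRD and 1.77 ± 0.41 in MI (SD, n = 6 each), a difference of -0.46 (two-sided exact permutation p = 0.173; adjusted over 3 pairs, 0.260). The ratios are of normalized counts and not per length. In MI+TRD replicate 5 the log2 ratio was 0.08, the lowest of all 12 libraries. Without that library the difference was -0.21, and without MI+TRD replicates 1, 4 and 5 it was -0.15.

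Cox4i2, a form associated with lung and low oxygen, had low values. It measured 3.22, 4.61 and 6.59 in MI+TRD against 5.47, 6.54 and 10.2 in MI, with 5 of 6 MI+TRD libraries below the lowest MI library and a log2 fold change of -0.62 (SE 0.20; limma adjusted p = 0.133). Unlike in the other genes of these isoform pairs, its 3 lowest MI+TRD libraries were replicates 1, 2 and 5, and without replicates 1, 4 and 5 its log2 fold change was -0.66. The log2 ratio of Cox4i1 to Cox4i2 was 6.94 ± 0.63 in MI+TRD and 7.09 ± 0.26 in MI (SD, n = 6 each), a difference of -0.15 (two-sided exact permutation p = 0.623), which turned to 0.29 without replicates 1, 4 and 5 and to 0.04 without MI+TRD replicate 4. The smallest two-sided p that 6 against 6 libraries allow is 0.00216. Cox6a1 lies within the row of Triap1 and Cox6a2 within that of Echs1, both on the other strand, and these had log2 fold changes of -0.83 and -0.83. The Echs1 row also takes in Uqcrc2, at 190555177 on chromosome 1 against 199624037 for Cox6a2. Its overlap with Cox6a2 may therefore be one of row coordinates only. In all, 12 of 47 rows overlap another row, some of them through such far-reaching rows (Echs1, Arpp19 and Sbk1).

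The other parts of the same pathway were described from lists. At an unadjusted limma p below 0.05, 19.1% of all genes tested were lower, the share to set beside each count here. Of 34 measured genes listed for complex I, 32 were lower at an unadjusted limma p below 0.05, with a median relative log2 fold change of -0.52. Ndufs7 was among them, at a log2 fold change of -0.65 (SE 0.14). The list went by gene name and also holds Ndufa4, which is now assigned to complex IV. Of the 4 genes of complex II, 4 were lower, among them Sdhb at -0.53 (SE 0.15). Of 23 measured genes outside the 47, listed mainly for the assembly of complexes III, IV and ATP synthase, 12 were lower, with a median of -0.23 relative. This list also holds Usmg5 and Atpif1, which are not assembly factors. Surf1, a complex IV assembly factor, had a log2 fold change of -0.53 (SE 0.16). Of 8 genes for the ADP, phosphate and creatine shuttles 3 were lower, or 37.5%, including Ckmt2, the mitochondrial creatine kinase of muscle, at -0.50 (SE 0.18). Of 13 regulators 3 were lower, or 23.1%, near the 19.1% of all genes, and 0 higher, with a median relative log2 fold change of 0.06. Esrra, a nuclear receptor gene, had a log2 fold change of -0.55 (SE 0.16), and Tfam, the packaging factor of mitochondrial DNA, one of -0.62 (SE 0.21). The coactivator gene Ppargc1a (0.44, SE 0.27), Gabpa (0.32, SE 0.17) and Ppara (0.33, SE 0.29), chosen after their values were seen, had log2 fold changes above 0 and did not pass. None of these passed after adjustment over all genes.

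The authors' deposited tables give the 2 times side by side. At 12 weeks, in the authors' deposited table, 7 of 47 were lower at a false discovery rate below 0.05, where 2.9% of all rows were, and 0 were higher, where 0.0443% were. They were Atp5d, Atp5e, Cox4i1, Cox5b, Cox6c, Uqcr10 and Uqcr11. At a deposited p below 0.05, 39 of 47 were lower, where 22% of rows were, and 0 higher, where 2.12% were. The median ratio of MI+TRD to MI was 0.653 against 0.896 over all rows in the authors' deposited table. In the authors' deposited table, Cox4i1 had a ratio of 0.584 (false discovery rate 0.0465) and Uqcr11 0.467 (0.0465). The statistical model of these tables is not given in the sources used here, and limma on the values per library called 0 of these 7.

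At 6 weeks, in the authors' deposited table, none of the 47 passed a false discovery rate of 0.05, nor did any of the 11283 rows. At a deposited p below 0.05, 1 of 47 was lower, where 4.09% of rows were, and 0 higher, where 4.42% were. Of the 47, 41 had a ratio below 1 in the authors' deposited table at 6 weeks, as did 6432 of 11283 rows. The median was 0.895 in the 47 against 0.973 over all rows. The gene at a p below 0.05 was Cox4i2, at a ratio of 0.725 in the authors' deposited table (least-squares means 7.41 in MI+TRD and 10.2 in MI; p = 0.0494, false discovery rate 0.584), and at 12 weeks its deposited ratio was 0.632 (false discovery rate 0.0584). Of the 47, 40 lay below 1 at both times, for which the share over all rows was not counted. The lower ratio was that at 12 weeks in 45 of the 47, as in 7256 of 11283 rows. Cycs had ratios of 0.922 and 1.13 at 6 and 12 weeks and Cox8a 1.17 and 0.594 in the authors' deposited tables. The tables may have been normalized separately, and the difference between the times was not tested.

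**Figure D5:**
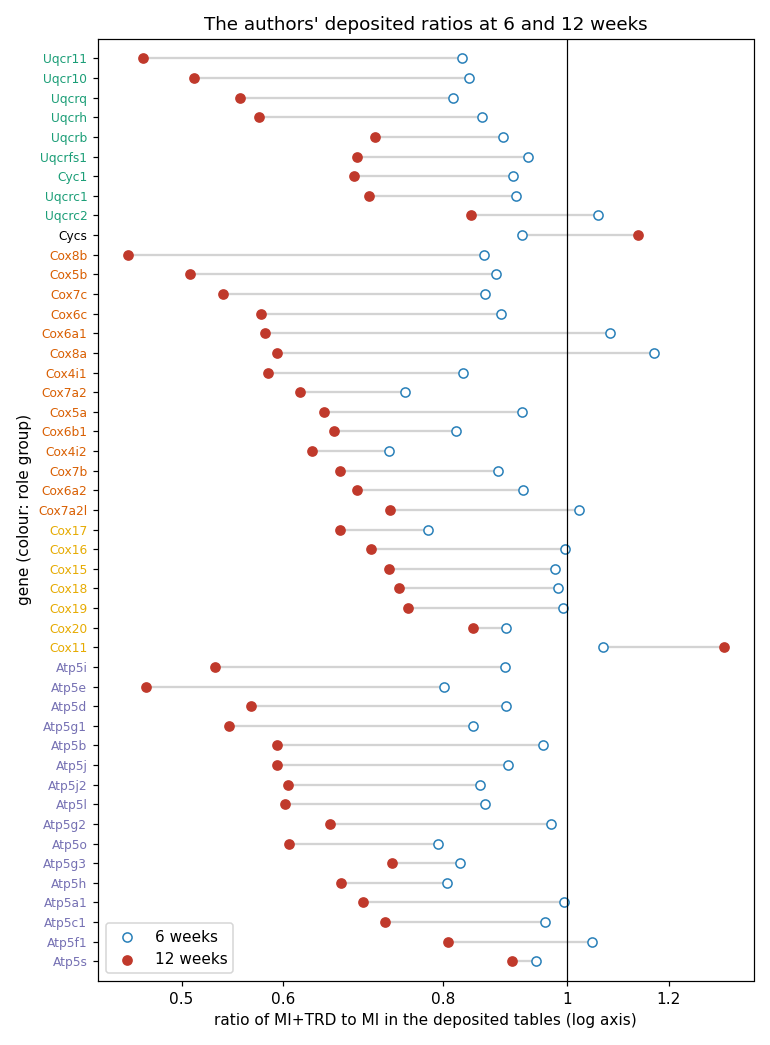
Ratio of MI+TRD to MI for each of the 47 genes in the authors' deposited tables at 6 weeks (open) and 12 weeks (filled), on a log axis, with lines joining the 2 times and gene names coloured by role group. Ratios at 12 weeks lie further below 1 for 45 of 47 genes, with Cycs and Cox11 the exceptions.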

How the data were processed

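Poly(A) RNA of rat myocardium was sequenced (Illumina, per the labels' protocols). Partek and build rn6 appear in the submitters' processing notes, without roles. Aligner, counting, annotation and scaling: not given in the sources used here. The authors deposited a normalized count, a signal, for every gene in each 12-week library, per the file headers. Low values were whole multiples of 1 step per library, so a value was taken as reads plus 1, times the step: of values up to 20 steps, 97.2% to 98.6% were whole to within 0.1. Per the file headers, the deposited comparison tables for 6 and 12 weeks hold per row the authors' p-value, false discovery rate (step-up), linear ratio of MI+TRD to MI, signed fold change (a score) and least-squares means. Single libraries of the 6-week groups were not analysed here.

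Values were analysed as log2(value + 0.208 deposited units) for genes of at least 0.415 deposited units on average, with limma 3.58.1 in R 4.3.3 (trended prior, two-sided, Benjamini-Hochberg, threshold 0.05). Fold changes on this scale understate low genes. edgeR 4.0.16 and DESeq2 1.42.0 ran on recovered reads as alternatives, and the steps were tested on simulated data. Isoform ratios used exact permutation over the 12 libraries. Counts of 0 allow up to 3 reads, for counting error only. All libraries of a group differed by more than sampling noise (chi-square over degrees of freedom at least 14.7).

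Genes named with values are, per role group, those with the smallest p and the one with the highest relative fold change, and members of isoform pairs; from other lists, up to 2 genes with the smallest p; further genes are said to be chosen after their values were seen, apart from those named as overlapping neighbours, in counts or as 1 of the authors' calls. The members and lists were chosen with earlier results of these data known. Reads shared with near-identical copies, such as processed pseudogenes, cannot be separated without the counting rules. Sequences are from RefSeq, GRCr8.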

Additional observations from a re-analysis of the deposited data

Results flagged for a closer look

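The log2 ratio of Cox8b to Cox8a in MI+TRD replicate 5 was 0.0841, far below the other libraries of its group. It was the 1 value past Dixon's critical value of 0.625 for 6 samples among 50 groups of 6 values examined, where chance flags about 1 in 20 groups.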

How the results depend on the processing

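The number of members lower at an unadjusted p below 0.05 was 38 as deposited, 25 with median ratio scaling, 25 with TMM, 15 with equal column totals, 21 with quantile normalization, 13 with edgeR, 17 with DESeq2, 19 with library weights, 21 with the span trend removed and 1 without MI+TRD replicates 1, 4 and 5; leaving out 1 library gave 29 to 42. The number higher was 1 as deposited, 2 with quantile normalization and with the span trend removed, 0 with edgeR, with library weights and without those 3 libraries, and 0 to 1 leaving out 1 library. The median relative log2 fold change was -0.27 with library weights, -0.0281 without the 3 libraries and -0.69 to -0.39 leaving out 1, against -0.53 as deposited. The count after adjustment was 0 of 47 throughout.

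Of 22 named members, Uqcrc2 turned to 0.0032 with equal column totals and 0.0018 with quantile normalization. Atp5s turned to 0.0522 with median ratio scaling, 0.0506 with TMM, 0.13 with equal column totals, 0.0121 with quantile normalization, 0.0353 with edgeR, 0.0436 with DESeq2 and 0.0306 with the span trend removed; the cause was not tested. The Cox4i1 to Cox4i2 difference turned to 0.29 without the 3 libraries and ran from -0.33 to 0.0449 leaving out 1. Leaving out 1 gave 0.20 to 0.44 for Cox6a2 to Cox6a1, -0.60 to -0.21 for Cox8b to Cox8a, 0.14 to 0.34 for Cycs and -0.17 to -0.06 for Atp5s. In the authors' deposited tables, a p below 0.05 in place of the false discovery rate called 1 member lower at 6 weeks and 39 at 12 weeks.

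Same-numbered libraries correlated between -0.33 and 0.33, so the numbers are not taken as pairs. With the replicate block, 40 members were lower and 1 higher, and 0 passed after adjustment. For the isoform ratios the block gave exact sign-flip p-values, adjusted over the 3 pairs, of 0.234 (Cox6a2 to Cox6a1), 0.0938 (Cox8b to Cox8a) and 0.562 (Cox4i1 to Cox4i2). Depth limits the low genes: Cox11 had 39 reads in its lowest library.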
